A study of Canis lupus familiaris with 186 samples.

Results

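Primary osteosarcomas of 186 dogs were sorted by how much RNA of cartilage matrix genes they held, and the 47 tumors of the top 25% (cartilage-rich) were compared with the 47 of the bottom 25% (cartilage-poor), with 92 tumors between. Osteosarcoma is a bone tumor in which malignant cells lay down osteoid, the unmineralized bone matrix, and many tumors also hold areas of cartilage or fibrous matrix. The dogs were pet dogs with limb tumors that arose on their own, all later treated by amputation, enrolled in the trials COTC021 and COTC022 (93 dogs in each), and the tissue was primary tumor taken before trial treatment. Each library is 1 tumor, the labels name no control tissue, and the trial is the group label the samples carry. Values are read counts per gene, scaled so that each library has the same total (counts per 1e6, CPM). Each dog is 1 tumor with no repeat library, so the spread reported is that between dogs.

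Cartilage cells (chondrocytes) build a matrix of type II collagen fibrils with type IX and XI collagen, filled with aggrecan, a large proteoglycan that is tied to hyaluronan by link protein. The transcription factor SOX9, with SOX5 and SOX6, switches these genes on, and in the growth plate the cells then enlarge, make type X collagen and give way to bone. Both groups were chosen by ACAN (aggrecan), COL2A1 (type II collagen), COL9A1 (type IX collagen) and MATN3 (matrilin-3), and a tumor's score averages the z-scores of log2(CPM + 1) of these 4 genes. The score ran from -1.79 to 3.68. The lowest cartilage-rich tumor scored 0.334, and the highest of the tumors between scored 0.322. On the other side, the highest cartilage-poor tumor scored -0.4924, against -0.4916 for the next tumor. Both borders therefore cut through a continuous range.

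The 4 chosen genes are given as a description, without a test. COL2A1 was 0 to 562 CPM in the cartilage-poor tumors, with a median of 1.12, and 2.27 to 49245 CPM in the cartilage-rich, with a median of 292. It lay above 1000 CPM in 16 cartilage-rich tumors and in 0 of the others. At the other end, 40 cartilage-poor tumors and 1 cartilage-rich tumor lay under 10 CPM. ACAN was 0 to 413 CPM (median 26.4) in the cartilage-poor and 82.3 to 6144 CPM (median 628) in the cartilage-rich. COL9A1 separated the groups almost fully, with a highest value of 3.01 CPM in the cartilage-poor and a median of 37.0 CPM in the cartilage-rich, 42 of which lay above that highest value. MATN3 had the smallest range, with medians of 2.74 and 10.3 CPM. Spearman's rho between pairs of the 4 genes over the 186 dogs was 0.226 to 0.714, as a description, with each library's depth shared by the 4. The tumor with the highest score, 3.68 against 2.40 for the next, had 49245 CPM of COL2A1, 4.92% of all its counts.

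**Figure D1:**
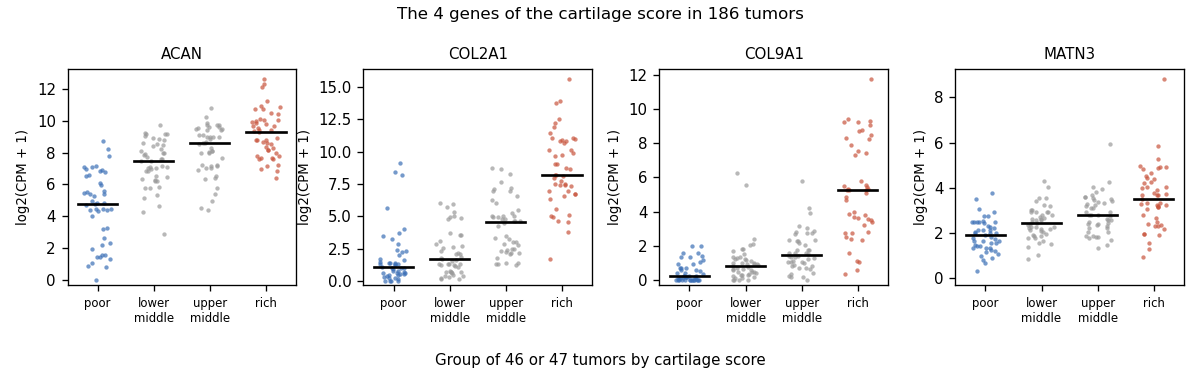
Level of the 4 score genes, log2(CPM + 1), in each of the 186 tumors (points), in 4 groups of rising cartilage score from poor to rich, with the median of each group as a bar. COL2A1 and COL9A1 lie near 0 in most cartilage-poor tumors and spread over a wide range in the cartilage-rich, as the choice of the members requires.

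The tumor with the lowest score (-1.79, against -1.29 for the next) stood apart. It held 328 CPM of COL1A1, the type I collagen of bone, the lowest of the cartilage-poor tumors, and 880.4 CPM of CD3E, a subunit of the T cell receptor complex, the highest of both groups. Without it, 2037 and 1943 genes passed the test in each direction, against 2183 and 2030 with it.

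Totals were 6587634 to 20287883 counts (median 10563478) in the cartilage-poor and 7446127 to 21558536 (median 11016779) in the cartilage-rich (means compared by a two-sided permutation test, p = 0.0550). The 50 libraries whose deposited column names carry a doubled separator were deeper, with medians of 19440456 and 9851682 counts in these and the remaining 136. They made up 14 of 47 cartilage-rich and 8 of 47 cartilage-poor tumors (Fisher's exact test, two-sided, p = 0.223). COTC021 gave 20 cartilage-rich and 23 cartilage-poor tumors (p = 0.679 by the same test). No gene differed in its change between the trials or between the deeper and other libraries at an adjusted p below 0.05 (limma-voom interaction), and this does not show that the changes were equal. At an unadjusted p below 0.05 in the same fits lay 388 of 13418 genes for the trials and 1220 for the groups of libraries.

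Of 13418 genes tested, 2183 (16.3%) were higher and 2030 (15.1%) lower in the cartilage-rich tumors (limma-voom with trial as covariate, Benjamini-Hochberg adjusted p below 0.05). With a fold change above 3 as well, there were 180 DEGs higher (1.34%) and 43 lower (0.32%). These genes come from the libraries in which the 4 chosen genes were measured, so a gene that varies with any of the 4 across tumors differs between the groups through the choice itself, and the tests describe which genes vary with them. The split of the DEGs depended on the tool, and edgeR's quasi-likelihood test gave 86 higher and 205 lower. The cause of this difference was not tested. Of the 180 higher DEGs, 78 were also DEGs in edgeR and 140 passed its test in the same direction. Of the 43 lower, 34 and 41 did.

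Cartilage matrix genes that the score did not use rose with it. Of 29 such genes, 20 passed the filter on low counts, 14 of these were higher, 0 lower and 6 did not pass the test, and the median log2 fold change was 1.93 against 0.016 over all genes tested. HAPLN1, the link protein that ties aggrecan to hyaluronan, changed most of all genes tested. It was 0.0511 to 493 CPM (median 4.10) in the cartilage-poor and 7.81 to 3407 CPM (median 228) in the cartilage-rich tumors, a log2 fold change of 5.96 ± 0.57 (SE, adjusted p = 1.7e-13). Its medians in the lower and upper group of the tumors between were 15.7 and 40.7 CPM. The groups overlapped, with 14 of 47 cartilage-rich tumors above the highest cartilage-poor one, and the change was 6.29 in COTC021 and 5.68 in COTC022. Its gene lies at chr3:24115889-24192354 of the build UU_Cfam_GSD_1.0 (RefSeq), which is used for all positions given here. In bulk tumor RNA, more cartilage cells and more of this RNA per cell cannot be told apart, here and for each gene that follows.

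The collagens that share the fibril with type II collagen followed. COL9A2, the second chain of type IX collagen (chr15:2717552-2732160), had medians of 7.21 CPM in the cartilage-poor (0.234 to 90.1) and 117 CPM in the cartilage-rich (13.1 to 1538), with 28 of 47 cartilage-rich tumors above every cartilage-poor one (log2 fold change 4.14 ± 0.39, adjusted p = 1.7e-13 by limma-voom). The third chain, COL9A3, did not pass the filter. It reached 10 counts in 7 cartilage-poor and 41 cartilage-rich tumors, with a highest value of 6.01 CPM in the former and a median of 20.7 CPM in the latter. COL11A1 rose by 3.54 ± 0.35 on the log2 scale, from a median of 100.0 CPM (8.52 to 877) to 1038 CPM (69.7 to 14653). COL11A2, its partner chain, rose by 3.58 ± 0.41 and COL27A1, another fibrillar collagen of cartilage, by 1.09 ± 0.21 (adjusted p = 4.1e-13, 1.8e-10 and 4.7e-05 for the 3 genes, limma-voom). The matrix collagens thus moved by unequal amounts, and COL27A1, which was detected in every tumor of both groups, moved least.

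Smaller proteins of the cartilage matrix were higher as well. CHADL, a leucine-rich protein that binds collagen, was at a median of 0.798 CPM (0 to 10.4) in the cartilage-poor and 9.88 CPM (0.209 to 53.6) in the cartilage-rich tumors (log2 fold change 3.78 ± 0.46, adjusted p = 1.5e-09 by limma-voom), and 20 cartilage-rich tumors lay above the highest cartilage-poor value. Matrilin-4 (MATN4) rose by 3.15 ± 0.49, CILP2 by 3.05 ± 0.49, CHAD (chondroadherin) by 2.15 ± 0.50 and COMP (cartilage oligomeric matrix protein) by 2.13 ± 0.53 on the log2 scale, with adjusted p between 1.5e-06 and 0.0015 by limma-voom. COMP overlapped widely, from 0.734 to 1430.4 CPM in the cartilage-poor and from 1.61 to 7382 CPM in the cartilage-rich. CNMD (chondromodulin), which is made by cartilage without vessels, had a log2 fold change of 2.48 ± 0.80 (adjusted p = 0.012 by limma-voom) and a highest value of 56.4 CPM against 1301 CPM. Some members of the list did not move with it. PRG4 (lubricin), the lubricant of the joint surface, was at -0.83 ± 0.86, CILP of the intermediate zone of articular cartilage at -0.64 ± 0.31 and S100A1, a calcium-binding protein of chondrocytes, at -0.64 ± 0.35, and none of these passed the test in limma-voom, whereas PRG4 was lower in edgeR (-3.06) and DESeq2 (-2.04). VIT (vitrin) passed in limma-voom at 1.14 (adjusted p = 0.047), but its edgeR value was -0.31.

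Several genes narrowly tied to cartilage were too low to be tested and are given by detection, with at least 10 counts. Matrilin-1 (MATN1) was detected in 0 cartilage-poor, 1 of the 92 tumors between and 9 cartilage-rich tumors. SNORC, a proteoglycan of the chondrocyte membrane, was detected in 0, 0 and 8, and CYTL1 in 0, 1 and 5. SCRG1 and CLEC3A were detected in 11 and 13 cartilage-poor and in 32 and 35 cartilage-rich tumors. Against this order, EPYC (epiphycan) was detected in 3, 3 and 1 tumors, S100B in 5, 19 and 18, and UCMA in none. The genes of mature cartilage such as MATN1 and SNORC were thus detected in a minority of the cartilage-rich tumors.

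The regulators of the chondrocyte program were higher too. Of 17 transcription factors, 12 were tested, of which 7 were higher and 0 lower, and the list's median was 0.93 on the log2 scale. SOX9 (chr9:8722828-8725975) was 0 to 7.94 CPM (median 1.04) in the cartilage-poor and 0.210 to 46.1 CPM (median 5.05) in the cartilage-rich tumors, and rose by 2.66 ± 0.37 on the log2 scale (adjusted p = 6.7e-08 by limma-voom). Of the cartilage-rich tumors, 16 lay above every cartilage-poor one. Its partners SOX6 and SOX5 rose by 2.34 ± 0.33 and 1.26 ± 0.37 (adjusted p = 1.3e-07 and 0.0062). BARX1, a homeobox factor of early joint and jaw cartilage, rose by 3.00 ± 0.68, PITX1 of the hindlimb by 1.70 ± 0.40, NKX3-2, which holds chondrocytes immature, by 1.66 ± 0.41 and TRPS1 by 0.61 ± 0.16. The other 5 tested factors did not pass.

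Growth plate signalling genes moved in part. Of 19 tested of 24, 7 were higher and 0 lower in limma-voom (median 0.84). In edgeR 5 were higher and 1, WIF1, lower (median 0.17), and in DESeq2 5 were higher and 3 lower. Among ligands, IHH (Indian hedgehog), the signal of prehypertrophic chondrocytes, was 0 to 59.0 CPM (median 0.158) in the cartilage-poor and 0 to 51.1 CPM (median 4.57) in the cartilage-rich tumors. The group medians were far apart (log2 fold change 3.75 ± 0.59, adjusted p = 1.5e-06, and 1.81 in edgeR), yet the highest value of all was in a cartilage-poor tumor. PTHLH, the ligand with which IHH forms a feedback loop, was at 0.22 ± 0.41 and did not pass. Among receptors, FGFR3, a brake on chondrocyte growth, rose by 2.63 ± 0.28 (adjusted p = 7.2e-12), with medians of 11.4 and 79.7 CPM, and each of the 47 cartilage-rich tumors lay above the cartilage-poor median. PTH1R, the receptor for PTHLH, rose by 1.44 ± 0.36 (0.75 in edgeR). Of the hedgehog targets, GLI1 rose by 1.5 ± 0.38, though by 0.45 in edgeR, and PTCH1 was at 0.29 ± 0.23, which did not pass. The secreted Wnt and BMP inhibitors FRZB, NOG and GREM1 rose by 2.05 ± 0.53, 1.45 ± 0.31 and 0.98 ± 0.38 (adjusted p = 0.0022, 0.00023 and 0.038). WIF1, another Wnt inhibitor, which osteosarcomas here held at high levels, was 0.216 to 20193 CPM (median 1523) in the cartilage-poor and 62.3 to 14874 CPM (median 536) in the cartilage-rich, and did not pass at 0.20 ± 0.69, against -1.60 in edgeR.

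Hypertrophic chondrocytes, the last stage before bone, are marked by type X collagen. COL10A1 reached 10 counts in 1 cartilage-poor, 10 of 92 tumors between and 27 of 47 cartilage-rich tumors, and its highest value was 1.62 CPM in the first and 395 CPM in the last, too sparse for the test. Of the 7 tested genes of this stage, 3 were higher, namely IHH, PHOSPHO1, a phosphatase that starts mineralization, with 1.5 ± 0.43, and the alkaline phosphatase ALPL with 1.20 ± 0.47 (adjusted p = 0.0046 and 0.042). The edgeR value of ALPL was 0.097. The collagenase MMP13 was 12.7 to 5228 CPM in the cartilage-rich and 0.530 to 11613 CPM in the cartilage-poor and did not pass (0.78 ± 0.55). RUNX2, which drives both hypertrophy and bone formation, did not pass either (0.28 ± 0.16).

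The enzymes that build chondroitin sulfate, the sugar chains of aggrecan, showed little change as a group. Of 26 tested, 5 were higher and 1 lower, and the median log2 fold change was 0.10. The higher ones were the chain-extending enzymes CHSY1 (0.29 ± 0.11), CHSY3 (1.04 ± 0.28) and CHPF (0.81 ± 0.23), the sulfotransferase UST (0.70 ± 0.15) and BPNT2 (0.64 ± 0.13), a phosphatase that clears the by-product of sulfation. CHST15, which adds a further sulfate to the chain, fell by 0.74 ± 0.20 (adjusted p = 0.0030). Of the 14 tested genes of aggrecan and collagen breakdown, 5 were higher and 1 lower in limma-voom (median 0.52). Among all genes tested 16.3% were higher and 15.1% lower. The list gave 2 higher and 1 lower in edgeR (median -0.07), and 3 and 2 in DESeq2 (median 0.12). Within COTC022 it gave 0 and 0. In limma-voom MMP2, MMP14 and the serine protease HTRA1 rose by 1.10 ± 0.29, 0.61 ± 0.14 and 0.68 ± 0.20, while the inhibitor TIMP1 fell by 0.83 ± 0.22. The aggrecanase ADAMTS5 was at -0.30 ± 0.28 and did not pass. MMP3 (stromelysin-1) rose by 2.02 ± 0.55 in limma-voom (adjusted p = 0.0032) but was at -0.15 in edgeR, and its highest value, 5072 CPM, was in a cartilage-poor tumor.

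**Figure D2:**
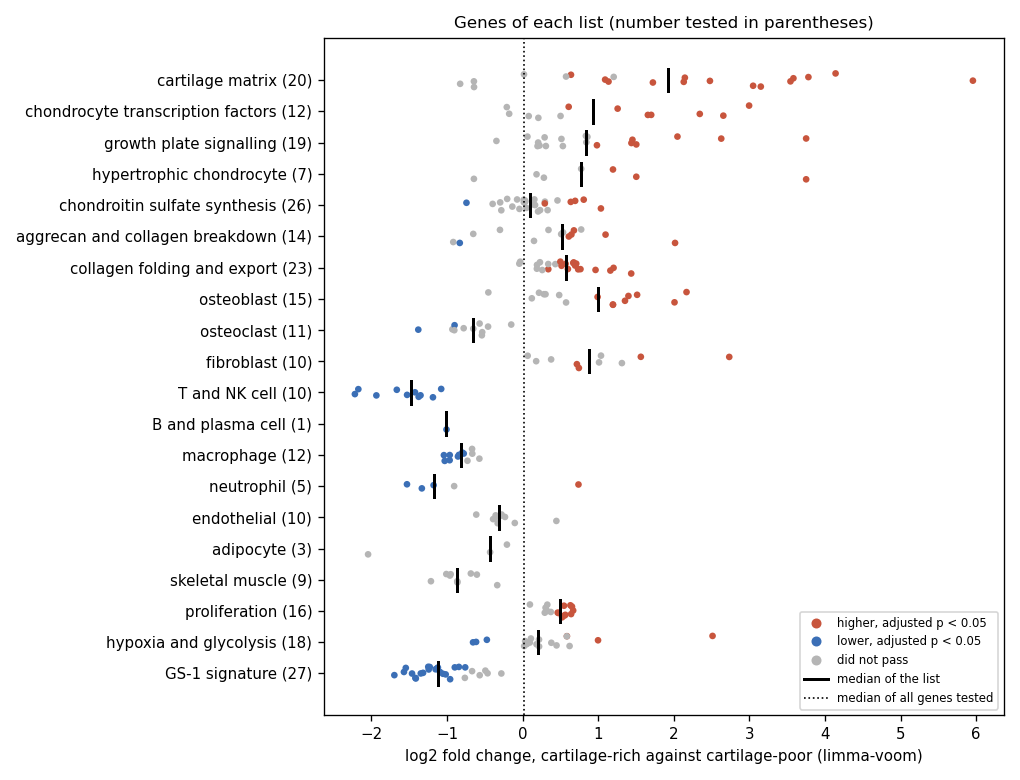
Log2 fold change (cartilage-rich against cartilage-poor, limma-voom) of each tested gene of the gene lists, colored by whether it passed an adjusted p below 0.05, with the median of each list as a bar and that of all genes tested as a dotted line. Lists of cartilage, collagen processing and osteoblast genes lie to the right of the dotted line and those of T and NK cells, macrophages and the GS-1 signature to the left.

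Bone matrix genes were higher together with the cartilage genes in limma-voom, and less so with other tools. Of 15 tested osteoblast genes, 8 were higher and 0 lower (median 0.99), against 16.3% higher among all genes tested. COL1A1 was 328 to 58013 CPM (median 10415) in the cartilage-poor and 7406 to 112270.1 CPM (median 23640.0) in the cartilage-rich tumors (log2 fold change 1.51 ± 0.29, adjusted p = 4.4e-05). COL1A2 rose by 1.20 ± 0.24, the osteoblast factors SP7 and DLX5 by 1.35 ± 0.35 and 0.99 ± 0.30, and the mineral-binding sialoprotein IBSP by 2.01 ± 0.64. SPP1 (osteopontin, -0.45 ± 0.33) did not pass. In edgeR, 2 of the 15 passed as higher (median 0.16), where 1999 of all 13418 genes did. DESeq2 gave 4 higher and 1 lower (median 0.16), and limma-voom with the GS-1 score as covariate gave 2 higher. IBSP was at 0.062 in edgeR, and it was under 10 CPM in 7 cartilage-poor tumors and 0 cartilage-rich ones.

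Genes of fibrous matrix were also very low in some cartilage-poor tumors. COL3A1, the type III collagen of connective tissue, was under 500 CPM in 19 cartilage-poor tumors, 3 of the tumors between and 0 cartilage-rich tumors. It was 2.84 to 53779 CPM (median 1134) in the cartilage-poor and 1352 to 38765 CPM (median 7756) in the cartilage-rich. It rose by 2.73 ± 0.53 (adjusted p = 5.2e-05), and by 0.93 in edgeR. POSTN (periostin, chr25:3231130-3272726), made by osteoblast precursors and fibroblasts, was under 10 CPM in 8 cartilage-poor and 0 cartilage-rich tumors and rose by 4.11 ± 0.54 (2.7 in edgeR). Of the cartilage-poor tumors low in POSTN by this level, 7 were among those low in COL3A1, and of those low in IBSP 2 were. ASPN (asporin), a small proteoglycan that binds collagen, rose from a median of 25.7 CPM (0.191 to 1503) to 718 CPM (110.5 to 5493), by 4.84 ± 0.57, and by 2.37 in edgeR. Of the 10 fibroblast genes, 4 were higher in limma-voom and 0 in edgeR. LUM (lumican) had a higher median in the cartilage-poor (2089.9 CPM) than in the cartilage-rich (1657 CPM) but a lowest value of 0.0812 against 129 CPM, and did not pass (1.04 ± 0.53).

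Many genes of collagen processing rose by small amounts. Of 23 tested genes of collagen folding and export, 15 were higher and 0 lower, and 8 did not pass (median 0.57), and 10 were higher in edgeR. The collagen chaperone SERPINH1 rose by 0.67 ± 0.15, the chaperone FKBP10 by 0.97 ± 0.16, the prolyl hydroxylases P4HA1 and P3H2 by 0.60 ± 0.16 and 1.44 ± 0.27, and the crosslinking enzyme LOXL3 by 1.16 ± 0.22. When the level of COL1A1 entered the model as a covariate, an analysis added after the data were seen, 1572 genes (11.7%) were higher and 1428 (10.6%) lower. Of the collagen folding genes 3 then passed as higher and of the osteoblast genes 4, against 12 of the 20 cartilage matrix genes. COL1A1 is itself a gene of the osteoblast list, and genes that vary with it lose change through the covariate itself. The contrast is therefore a description. As lower passed PRG4 (-3.17) and CILP (-1.11) of the cartilage matrix, the crosslinking enzyme LOX (-0.80) of the collagen folding list and SPARC (-0.44), a collagen-binding protein, of the osteoblast list. HAPLN1 was 5.56, COL9A2 3.90 and SOX9 2.29 on the log2 scale in that model, and COL3A1 1.52.

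**Figure D3:**
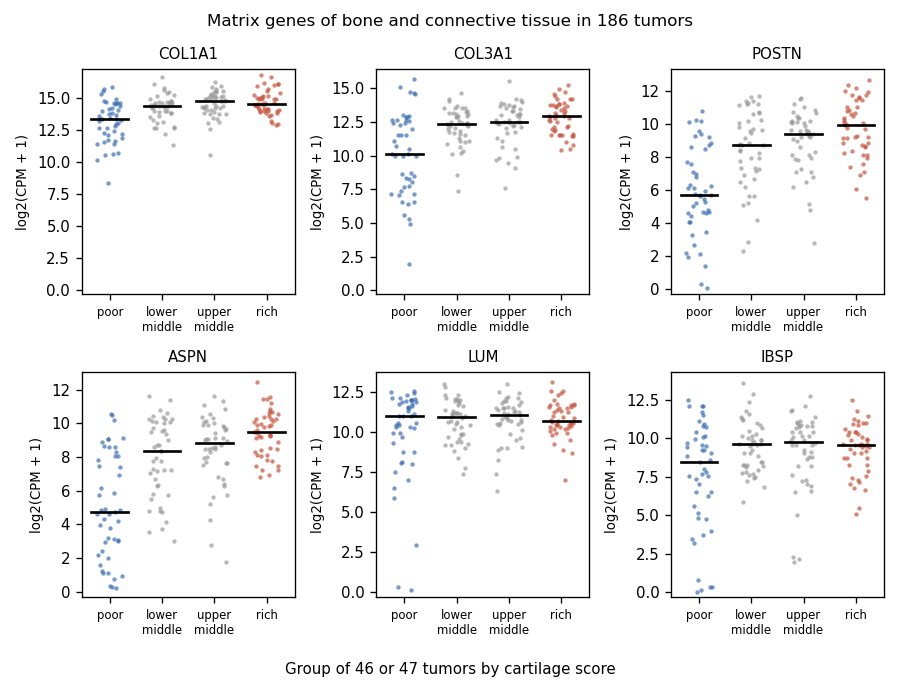
Level, log2(CPM + 1), of 6 genes of bone and connective tissue matrix in each of the 186 tumors (points) in 4 groups of rising cartilage score, with medians as bars. For COL3A1, POSTN, ASPN and IBSP some cartilage-poor tumors lie below the range of the cartilage-rich tumors, while LUM has medians between 1657 and 2130.2 CPM. Of the 8 cartilage-poor tumors under 10 CPM of POSTN, 7 were among the 19 under 500 CPM of COL3A1. Of the 7 under 10 CPM of IBSP, 2 were.

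Immune genes were lower in the cartilage-rich tumors. Each of the 10 tested T and NK cell genes fell, the list's median being -1.48 on the log2 scale, and the same list summed to 10.1 to 6994 CPM (median 55.1) in the cartilage-poor and 6.82 to 403 CPM (median 25.6) in the cartilage-rich tumors. The other 4 genes of the list did not pass the filter. CD3E was 0.122 to 880.4 CPM (median 5.73) in the cartilage-poor and 0.212 to 90.4 CPM (median 1.87) in the cartilage-rich, and fell by 1.66 ± 0.44 on the log2 scale (adjusted p = 0.0024), against -2.86 in edgeR. The granzymes GZMB and GZMK, with which cytotoxic cells kill, fell by 2.22 ± 0.48 and 2.17 ± 0.54 (adjusted p = 0.00028 and 0.0015). GZMB overlapped over most of its range, 0 to 83.6 CPM in the cartilage-poor against 0 to 32.8 CPM in the cartilage-rich tumors. Of 12 macrophage genes, 8 were lower and 0 higher (median -0.82). Among them CSF1R, the receptor for the growth factor that keeps macrophages alive, fell by 0.85 ± 0.23, CD163 by 1.03 ± 0.34 and AIF1 by 1.04 ± 0.27 (adjusted p = 0.0028, 0.015 and 0.0025). Of the B and plasma cell genes only JCHAIN passed the filter, and it fell by 1.01 ± 0.33. In the neutrophil list 3 of 5 fell and 1, MPO, rose.

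The GS-1 signature, 27 mostly immune genes that the study kept from an earlier list for canine osteosarcoma, fell with them, 21 of 27 genes lower and 0 higher (median -1.12). The mean z-score of its genes was 0.40 ± 0.98 (SD, n = 47) in the cartilage-poor and -0.38 ± 0.59 (SD, n = 47) in the cartilage-rich tumors. It ran from -1.34 to 3.24 in the former and from -1.56 to 0.92 in the latter, and 12 cartilage-poor tumors lay above every cartilage-rich one. The low end was shared, so cartilage-poor tumors held both low and high immune scores. Over all 186 dogs, Spearman's rho between the scores was -0.310, a description of libraries in which cell makeup and depth are shared by both. With the GS-1 score as a covariate, 716 genes (5.34%) were higher and 644 (4.8%) lower. In limma-voom 0 of the T and NK cell genes and 0 of the macrophage genes then passed as lower (0 and 2 at an unadjusted p below 0.05 in either direction). The score averages mostly immune genes of the same libraries, so a loss of immune calls was built into this model. Of the 20 cartilage matrix genes, 12 passed as higher. HAPLN1 was 5.71 and SOX9 2.45 in that model, and GZMB -0.46. Fewer immune genes also passed with the COL1A1 level as covariate. In limma-voom 0 of the 10 T and NK cell genes then passed as lower (1 at an unadjusted p below 0.05, median -0.68). Of the 12 macrophage genes 2 did (8 at an unadjusted p below 0.05, median -0.82). Of the 27 GS-1 genes 11 did (20 at an unadjusted p below 0.05, median -0.80). GZMB was -1.28 and CXCR6 -1.03 in that model. Within COTC021 and COTC022, 6 and 1 of the T and NK cell genes passed as lower (medians -1.62 and -1.46), and edgeR and DESeq2 called 10 and 10. Of the 12 macrophage genes, 3 and 0 passed as lower within these trials (medians -0.92 and -0.80), and 11 in edgeR. Of the 27 GS-1 genes, 10 and 1 did (medians -1.19 and -1.08), and 26 in edgeR.

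**Figure D4:**
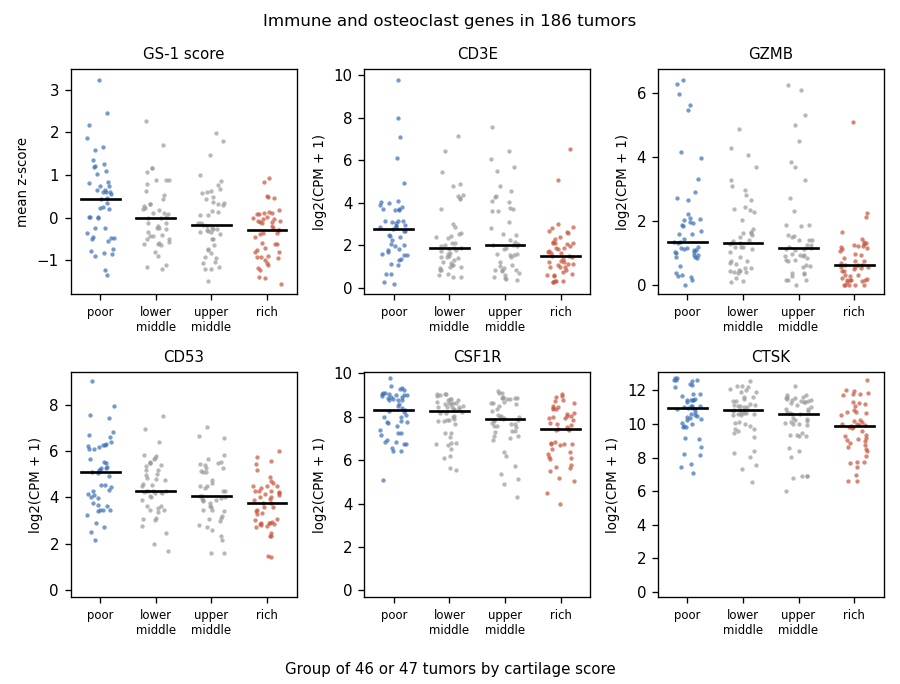
The GS-1 score (mean z-score) and the level, log2(CPM + 1), of 5 genes of T cells, leukocytes, macrophages and osteoclasts in each of the 186 tumors (points) in 4 groups of rising cartilage score, with medians as bars. The cartilage-rich tumors have the lowest medians of the GS-1 score and of the 5 genes, and lack the highest values of the cartilage-poor for CD3E and CD53.

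Few genes of the remaining cell types passed in limma-voom. Osteoclasts, the cells that resorb bone, gave 2 lower and 0 higher genes of 11, against 15.1% lower among all genes tested. Each of the 11 values lay below 0 (median -0.65). The bone-degrading protease CTSK fell by 0.90 ± 0.30 and the fusion protein DCSTAMP by 1.38 ± 0.44 (adjusted p = 0.015 and 0.012), whereas ACP5 (-0.93 ± 0.50) did not pass. With the GS-1 score or COL1A1 as covariate, and within each trial, 0 of the 11 passed. Of the 10 endothelial genes 0 were higher and 0 lower in limma-voom and 0 in edgeR, with 1 at an unadjusted p below 0.05 in limma-voom (median -0.31). The 9 skeletal muscle genes did not pass in limma-voom either (0 at an unadjusted p below 0.05, median -0.86), but 9 did as lower in edgeR. Their summed level reached 24882 CPM in a cartilage-poor and 3852 CPM in a cartilage-rich tumor, with medians of 71.5 and 37.3 CPM, so a few tumors carried far more muscle RNA than most. The 3 tested adipocyte genes did not pass (1 at an unadjusted p below 0.05), and 2 were lower in edgeR. The part that muscle, fat or immune RNA plays in the level of the cartilage genes was not tested, beyond the models with the GS-1 score and COL1A1.

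Proliferation genes were slightly higher, 10 of 16 passing and none lower (median 0.50), against 16.3% higher among all genes tested. AURKB rose by 0.67 ± 0.16 and MKI67 by 0.55 ± 0.20 (adjusted p = 0.0011 and 0.028), from a median of 102 to 128 CPM for the latter. The number of the 16 passing as higher was 0 with the GS-1 score as covariate and 13 with COL1A1. It was 1 within COTC021 and 0 within COTC022, and 6 in edgeR and 6 in DESeq2. Hypoxia and glycolysis genes went both ways, 3 higher and 3 lower of 18, shares close to the 16.3% higher and 15.1% lower among all genes tested. CA9, a carbonic anhydrase that low oxygen induces, rose from a median of 0.910 CPM (0.0497 to 27.8) to 6.56 CPM (0 to 154), by 2.51 ± 0.51 (adjusted p = 0.00010). EGLN3, an oxygen sensor, rose by 1.00 ± 0.30, while NDRG1 and PFKFB3, both also induced by low oxygen, fell by 0.61 ± 0.15 and 0.66 ± 0.17. The other 12 did not pass.

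Beyond the lists, the largest changes fell on matrix, growth factor and nerve-type genes. After HAPLN1 came H19, an imprinted noncoding RNA of fetal tissue (chr18:46659811-46662515), which was 0 to 145 CPM (median 0.530) in the cartilage-poor and 0.331 to 3019 CPM (median 27.4) in the cartilage-rich tumors and rose by 4.97 ± 1.04 (adjusted p = 0.00018). TNN (tenascin-N, also called tenascin-W), a matrix protein of bone surfaces, rose by 4.30 ± 0.43, with 20 cartilage-rich tumors above every cartilage-poor one. PTN (pleiotrophin), a growth factor that binds the sugar chains of proteoglycans and is abundant in fetal cartilage (chr16:10950643-11051479), was 0 to 315 CPM (median 29.0) in the cartilage-poor and 25.5 to 6496 CPM (median 477) in the cartilage-rich tumors. It rose by 4.12 ± 0.41 (adjusted p = 4.1e-13 for TNN and 4.1e-13 for PTN, limma-voom), and 28 cartilage-rich tumors lay above the highest cartilage-poor one, as many as for COL9A2. The citrate transporter SLC13A5 rose by 4.21 ± 0.80, the secreted protein C1QTNF3 by 3.85 ± 0.81 (1.45 in edgeR), the glutamate receptor subunit GRIA2 by 3.84 ± 0.66, the ephrin receptor EPHB2 by 3.72 ± 0.54 and CAPN6, a calpain that lacks protease activity, by 3.61 ± 0.90. The rule that picked these genes asked for 1 direction in both trials and both groups of libraries. That agreement was therefore set by the choice. In limma-voom SLC13A5 and EPHB2 passed within each trial. C1QTNF3 and CAPN6 did not pass within COTC021 (adjusted p = 0.068 and 0.13), nor did GRIA2 within COTC022 (adjusted p = 0.052). Within the deeper libraries SLC13A5, C1QTNF3, GRIA2, EPHB2 and CAPN6 did not pass. GRIA2 was low, at medians of 0.0984 and 4.17 CPM, and reached 10 counts in 10 cartilage-poor and 36 cartilage-rich tumors. With the score as a continuous term, GRIA2 was at 0.34 and did not pass (adjusted p = 0.62, limma-voom). SLC13A5, C1QTNF3, EPHB2 and CAPN6 passed there as higher. The rise of GRIA2 is therefore shown for the cut into groups only.

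The largest falls were mostly of immune genes. CXCR6 and CLEC2D of T and NK cells fell by 1.93 ± 0.48 and 1.93 ± 0.51, SLAMF7 of NK and plasma cells by 1.74 ± 0.35, and XCR1 and LAMP3, which mark cross-presenting and mature dendritic cells, by 1.78 ± 0.43 and 1.73 ± 0.37. SLAMF7 was 0.191 to 166 CPM (median 7.59) in the cartilage-poor and 0.105 to 30.7 CPM (median 2.15) in the cartilage-rich tumors, and 42 of 47 cartilage-poor tumors lay above the cartilage-rich median. The interferon-induced GTPases GBP1 and GBP6 fell by 1.85 ± 0.31 and 2.07 ± 0.34, with IFGGC1 (-1.92 ± 0.57), IFGGB2 (-1.86 ± 0.49) and PLAC8B (-1.84 ± 0.45) beside them. The GTPases are members of gene families whose close copies can share reads. A pair among the 15 genes with the largest falls and a symbol was of another kind. SLC24A5, an ion exchanger of pigment cells, was the largest at -2.84 ± 0.93 (adjusted p = 0.014), with 0 to 201 CPM (median 3.15) against 0 to 141 CPM (median 0.150). SPHKAP, an anchoring protein of protein kinase A, fell by 1.94 ± 0.57. Both passed within COTC022 (-3.87 and -2.36) but not within COTC021 (-1.47 and -1.43). With a score without ACAN, SPHKAP was at -0.92 and did not pass. With the GS-1 score as covariate SLC24A5 was at -2.91 and did not pass (adjusted p = 0.053, limma-voom). SPHKAP was at -1.96 there and passed (adjusted p = 0.034), whereas CXCR6 was at 0.21, CLEC2D at 0.15 and GZMK at 0.18. That score averages mostly immune genes, so smaller falls of immune genes were built into that model.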

How the data were processed

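RNA of 186 primary canine tumors was measured by stranded mRNA sequencing. The authors aligned reads with STAR 2.7.0f to the build UU_Cfam_GSD_1.0, quantified genes with RSEM 1.3.1 and deposited expected counts, not normalized, for 37952 genes. Expected counts divide reads shared by several genes. Of 198 columns, 186 matched a sample and 12 were not used. Counts were rounded, and 108 symbols found on more than 1 row were not named. Totals ranged from 6587634 to 27420867, and counting intervals would cover counting error only.

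The score was the mean z-score of log2(CPM + 1) of ACAN, COL2A1, COL9A1 and MATN3. Genes were kept by filterByExpr of edgeR 4.0.16 (a count minimum of 10 and a proportion of 0.5, without groups), which needs about 0.926 CPM in 96 of 186 libraries, more than either group holds. The groups were compared with TMM and limma 3.58.1 voom in R 4.3.3, with trial as covariate and the 4 score genes removed before Benjamini-Hochberg adjustment. Log2 fold changes are given ± SE, cartilage-rich against cartilage-poor, and a DEG has an adjusted p below 0.05 and a fold change above 3. Alternatives were edgeR's quasi-likelihood test, DESeq2 1.42.0, other normalization, filter, covariates, subsets, group sizes and scores. The covariate COL1A1 and the fit without the tumor of lowest score were chosen after seeing the data. The fit was checked on simulated counts. Fisher's exact test and permutation tests (100000 resamples, two-sided) used Python 3.11.15 and scipy 1.17.1.

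The members and gene lists were chosen with earlier results of these data known. Named genes are the 15 largest and 15 smallest log2 fold changes among DEGs with a symbol and 1 direction in both trials and both groups of libraries, and genes of the lists. Gene positions are those of RefSeq for the same build. The study's clusters and the follow-up of the dogs were not used here, and no sequences were analysed here. A gene that the rule for named genes picks is not reported here.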

Additional observations from a re-analysis of the deposited data

How the results depend on the processing

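No paired analysis was possible because the replicate numbers follow accession order and pair no dogs. Against 2183 higher and 2030 lower genes, the counts were 716 and 644 with the GS-1 score as covariate, 819 and 838 within COTC021, 603 and 561 within COTC022, 77 and 218 within the deeper libraries and 822 and 717 within the other libraries. The other 17 alternatives gave 1572 to 2442 higher and 1428 to 2564 lower genes.

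Against 180 higher and 43 lower DEGs, there were 86 and 205 with edgeR, 84 and 151 with DESeq2, 278 and 96 without the filter, 117 and 5 with the GS-1 score as covariate, 141 and 26 within COTC022, 50 and 113 within the deeper libraries and 105 and 3 within the other libraries. There were further 125 and 12 with 62 tumors on each side, 171 and 12 with a score without ACAN, 124 and 10 with a score without COL2A1, 152 and 28 with a score without COL9A1, 135 and 21 with COL1A1 as covariate, 79 and 23 with the score as a continuous term and 10 and 0 with treat against the DEG fold. The other 9 gave 160 to 205 higher and 32 to 58 lower DEGs.

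Of 2464 values of 112 named genes under the alternatives, 2055 kept their direction and their side of the threshold, 354 kept the direction without passing, 18 passed only in the alternative and 37 changed sign. With the GS-1 score as covariate, the sign changed for GZMK at 0.18, CLEC2D at 0.15, CXCR6 at 0.21, IFGGC1 at 0.034, PRG4 at 0.075, PTCH1 at -0.090, WIF1 at -0.080, CD3E at 0.33 and CD163 at 0.26. Within COTC022, the sign changed for PRG4 at 0.57 and WIF1 at -0.20. Within the deeper libraries, the sign changed for PRG4 at 1.28. With edgeR, the sign changed for VIT at -0.31, PTHLH at -0.25, PTCH1 at -0.22, WIF1 at -1.60, MMP13 at -0.16, MMP3 at -0.15, LOX at -0.18 and IGF2 at -0.53. With DESeq2, the sign changed for VIT at -0.31, PTHLH at -0.96, PTCH1 at -0.23, WIF1 at -1.60, MMP13 at -0.16, LOX at -0.19 and IGF2 at -0.53. Within the other libraries, the sign changed for PTHLH at -0.058 and LOX at -0.024. With COL1A1 as covariate, the sign changed for PTHLH at -0.034, LOX at -0.80, COL1A1 at -0.039, SPARC at -0.44 and LUM at -0.17. With a score without COL2A1, the sign changed for PTCH1 at -0.021 and IGF2 at -0.022. Without the tumor of lowest score, the sign changed for WIF1 at -0.0089. The causes were not tested, and the fits within a trial or group of libraries also used fewer tumors. The difference of the mean total count, 1748105 counts, was 1252836 for TMM effective library sizes (permutation p = 0.173). At the median depth 10 counts are 0.926 CPM, so genes near that level, such as COL10A1, MATN1 and SNORC, were described by detection alone.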

Other observations

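The genes of this section lie outside the rule for named genes and were chosen after their values were seen, so they are descriptions. Imprinted genes, of which the copy of 1 parent is silent in many tissues and most of which are active in the fetus, were higher in part in the cartilage-rich tumors. Of 14 such genes, 12 were tested, 7 were higher and 0 lower in limma-voom, against 16.3% higher among all genes. Next to H19, PEG10 was 0.164 to 187 CPM (median 14.6) in the cartilage-poor and 0.630 to 744 CPM (median 90.0) in the cartilage-rich tumors (log2 fold change 2.94 ± 0.49). PEG3 was at 2.61 ± 0.47 and MEST at 2.51 ± 0.43. IGF2, the neighbor of H19 that shares its control region, was at medians of 4.82 and 5.43 CPM, with a log2 fold change of 0.48 ± 0.52 that did not pass (-0.53 in edgeR). IGF2BP1, an RNA-binding protein of fetal tissue that is not imprinted, was at 2.76 ± 0.92.

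The ISA 4 signature, a list the study chose on these tumors and which holds the score gene COL2A1, was higher in 31 of its other 38 genes and lower in 0 (median log2 fold change 1.84), and 21 were higher in edgeR. Its choice on these samples makes this no independent evidence of a direction. Beside cartilage genes it holds GRIA2, the calcium channel subunit CACNG7 (3.15 ± 0.66), the homeobox gene IRX1 (1.66 ± 0.55) and SMPD3 (2.77 ± 0.58), a sphingomyelinase of growing bone and cartilage.

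HAS2, which makes the hyaluronan that aggrecan binds, was at medians of 3.87 and 16.8 CPM in the cartilage-poor and cartilage-rich tumors (2.38 ± 0.42 in limma-voom and 0.90 in edgeR). ABCB1, a drug efflux pump, was at -1.59 ± 0.46, with medians of 4.16 and 1.67 CPM, and -1.42 with the GS-1 score as covariate.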
